A study of Homo sapiens with 6 samples.

Results

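The 9 genes described here encode core subunits of the Polycomb repressive complexes: EZH2, EZH1, EED and SUZ12 of Polycomb repressive complex 2 (PRC2), and RNF2, BMI1, PHC1, CBX2 and CBX8 of Polycomb repressive complex 1 (PRC1). They were taken by name from 19451 protein-coding genes of at least 1 kb on chromosomes 1 to 22 and X. The choice did not use measured values, but earlier results of these data were known when it was made. The data were chromatin immunoprecipitation sequencing (ChIP-seq) peak lists from HEK293T, an established human embryonic kidney line into which the SV40 large T antigen was introduced. The cells carried no treatment or further genetic change in the labels. The libraries were H2AZ CST and H2AZ Abcam (antibodies from different suppliers to the histone variant H2A.Z), H3.3 (a histone H3 variant), H4K16ac (acetylated lysine 16 of histone H4), H3K79me2 (dimethylated lysine 79 of histone H3) and input chromatin, whose values were not used here. Each antibody had 1 library, so neither a replicate error nor a p-value can be given, and the statements below compare genes within these libraries only.

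Polycomb proteins hold developmental genes in a repressed state. PRC2 methylates lysine 27 of histone H3. Its catalytic subunit is EZH2 or the related EZH1, SUZ12 is the scaffold, and EED binds the methylated lysine and stimulates the enzyme. PRC1 attaches ubiquitin to histone H2A through the ligase RNF2 (RING1B), which works together with a PCGF protein such as BMI1 (PCGF4). In canonical PRC1, a CBX protein such as CBX2 or CBX8 reads the methyl mark with its chromodomain, and a polyhomeotic protein such as PHC1 lets complexes join end to end. Neither Polycomb mark was measured in this series, so the data concern the chromatin of the genes that encode these proteins and not the places the proteins bind. H2A.Z and H3.3 are known from nucleosomes at the starts of active genes. H4K16ac is written by KAT8, and H3K79me2 is laid down by DOT1L over the first part of transcribed genes.

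The lists used held 52325 H2AZ CST, 44634 H2AZ Abcam, 72287 H3.3, 76748 H4K16ac and 54476 H3K79me2 peaks in build hg38. The weakest peak of each list had a −log10 q between 2.00 and 2.06, and the sources used here do not give the read depth of a library. Peak strength is the authors' −log10 q (q is the caller's adjusted p-value) or their fold enrichment at the summit, and these values were used only to rank peaks within a list. A gene's start is the outermost annotated 5′ end, and a peak was counted there when it came within 1 kb. RefSeq promoter entries gave the strand of 7 of the 9 genes. For CBX2 and CBX8, and for 4038 of the 19451 genes, either end was accepted. As a check of the labelled line, 1 to 2 of 3 kidney development genes (PAX2, LHX1 and WT1) carried a start peak in each list. PAX2 had none at its outermost start, but H2AZ CST covered 2.78%, H2AZ Abcam 3.51% and H3.3 6.16% of the gene. Any other annotated start of PAX2 was not looked at. Of 4 genes of blood, liver and muscle (PTPRC, CD3E, ALB and MYOD1), 0 to 2 carried a start peak in each list. The muscle gene MYOD1 had start peaks in 4 lists and was covered over 71.7% by H2AZ CST, 87.6% by H2AZ Abcam and 73.1% by H3.3, more than any of the 3 kidney genes, so these start peaks did not separate the marker sets.

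Promoter sequences from RefSeq (GRCh38.p14), 250 bases before to 50 bases after a start, were found for 7 of the 9 genes. As a set they held more CpG than most promoters. The 10 promoters of these 7 genes had a median of 38 CpG and 73% G and C, against 21 CpG and 62.7% for 21730 promoters of 15412 protein-coding genes. Motifs were chosen after the sequences had been seen, and each was searched on both strands. The letters TTTNNCGC, a form of the site bound by E2F factors, stood in 3 of the 10 promoters, those of EZH2, SUZ12 and EZH1, against 8.34% of the 21730. The first 3 sequences below are these promoters, shown with the match in capitals because they belong to genes that differ widely in their peaks. Their positions are EZH2 chr7:148884242-148884541 on the minus strand, SUZ12 chr17:31936757-31937056 on the plus strand and EZH1 chr17:42744991-42745290 on the minus strand.
EZH2: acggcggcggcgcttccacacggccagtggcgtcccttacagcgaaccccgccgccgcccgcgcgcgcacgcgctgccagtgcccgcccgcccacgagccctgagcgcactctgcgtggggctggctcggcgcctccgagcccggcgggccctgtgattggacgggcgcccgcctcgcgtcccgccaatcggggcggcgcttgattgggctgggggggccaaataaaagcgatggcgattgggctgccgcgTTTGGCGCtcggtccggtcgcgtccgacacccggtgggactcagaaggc
SUZ12: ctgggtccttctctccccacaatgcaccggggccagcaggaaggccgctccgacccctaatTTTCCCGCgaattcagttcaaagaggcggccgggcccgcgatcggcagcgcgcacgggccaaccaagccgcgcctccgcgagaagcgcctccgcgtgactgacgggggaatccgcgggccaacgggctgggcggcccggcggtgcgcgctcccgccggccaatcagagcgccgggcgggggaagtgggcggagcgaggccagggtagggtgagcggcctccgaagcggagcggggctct
EZH1: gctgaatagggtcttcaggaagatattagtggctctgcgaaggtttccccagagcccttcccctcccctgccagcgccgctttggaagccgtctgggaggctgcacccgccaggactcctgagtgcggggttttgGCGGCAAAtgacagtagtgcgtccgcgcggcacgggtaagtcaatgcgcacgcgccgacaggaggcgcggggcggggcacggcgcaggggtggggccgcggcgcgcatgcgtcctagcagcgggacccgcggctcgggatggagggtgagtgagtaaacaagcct
The match began at base 1 in EZH2, at base -189 in SUZ12 and at base -115 in EZH1, counted from the start as 0. The letters CCAAT, the box bound by NF-Y, stood at 4 places in the EZH2 promoter, between bases -94 and -13, and at 1 place each in those of SUZ12 (base -31) and EED (base -16). At least 1 CCAAT was present in 34.4% of all promoters. The letters CACGTG, an E-box, stood at base -70 in the BMI1 promoter and in 8.45% of all promoters. CCATNTT, a form of the YY1 site, stood at base -2 in RNF2 and base -19 in BMI1 and in 14.5% of all promoters. A match describes letters and not binding.

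PHC1 is shown at both its annotated starts, because most of its peaks lay around the inner one, 666 bp downstream of the outermost. CpG are in capitals. The outer window is chr12:8913593-8913892 and the inner one chr12:8914259-8914558, both on the plus strand.
PHC1 outer: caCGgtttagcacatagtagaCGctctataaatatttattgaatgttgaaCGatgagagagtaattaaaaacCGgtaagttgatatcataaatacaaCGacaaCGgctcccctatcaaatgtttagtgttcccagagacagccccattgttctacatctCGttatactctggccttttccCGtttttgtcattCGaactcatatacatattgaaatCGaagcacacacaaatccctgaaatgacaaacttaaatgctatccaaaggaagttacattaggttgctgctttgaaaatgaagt
PHC1 inner: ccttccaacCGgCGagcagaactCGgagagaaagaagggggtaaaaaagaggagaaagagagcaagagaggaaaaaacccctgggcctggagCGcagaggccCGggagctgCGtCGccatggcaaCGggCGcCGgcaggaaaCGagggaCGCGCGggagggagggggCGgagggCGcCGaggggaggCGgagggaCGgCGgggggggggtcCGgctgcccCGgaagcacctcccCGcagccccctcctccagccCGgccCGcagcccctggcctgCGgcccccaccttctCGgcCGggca
The outer window held 10 CpG and 37% G and C, and the inner one 28 CpG and 72.3%. EED had the next lowest count after the outer PHC1 window, with 16 CpG and 52.3% G and C. The highest count was that of the inner BMI1 window, with 65 CpG and 91% G and C.

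Each of the 9 genes carried an H2AZ CST and an H3K79me2 peak at the start, and 6 carried a peak of every list. H2AZ CST peaks lay at the start of 9 of 9 genes (69.0% of all 19451 genes), H2AZ Abcam peaks at 8 (69.5%), H3.3 peaks at 8 (62.2%), H4K16ac peaks at 6 (51.1%) and H3K79me2 peaks at 9 (54.3%). The genes with all 5 lists were EZH2, EZH1, RNF2, BMI1, CBX2 and CBX8, 6 of 9 against 35.5% of all genes. EED and PHC1 lacked H4K16ac alone, 2 of 9 against 11.3%. SUZ12 carried H2AZ CST and H3K79me2 alone, a combination found at 36 of the 19451 genes (0.185%). The combination counted was the one SUZ12 itself showed, so this share is descriptive only. It rests on a single weak H2AZ CST peak, and 11.3% of genes with an H2AZ CST start peak had a weaker one. H2AZ Abcam had no start peak at SUZ12. The part of the partial SUZ12 copy described below was not tested. No gene of the 9 was without a start peak (23.2% of all genes). No RNA was measured, so these counts describe chromatin and not expression. Among the 10000 strongest peaks of each list, 2, 3, 3, 0 and 8 of the 9 genes kept a start peak in the order used above, against 36.3%, 38.2%, 26.1%, 13.5% and 42.4% of all genes.

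**Figure D1:**
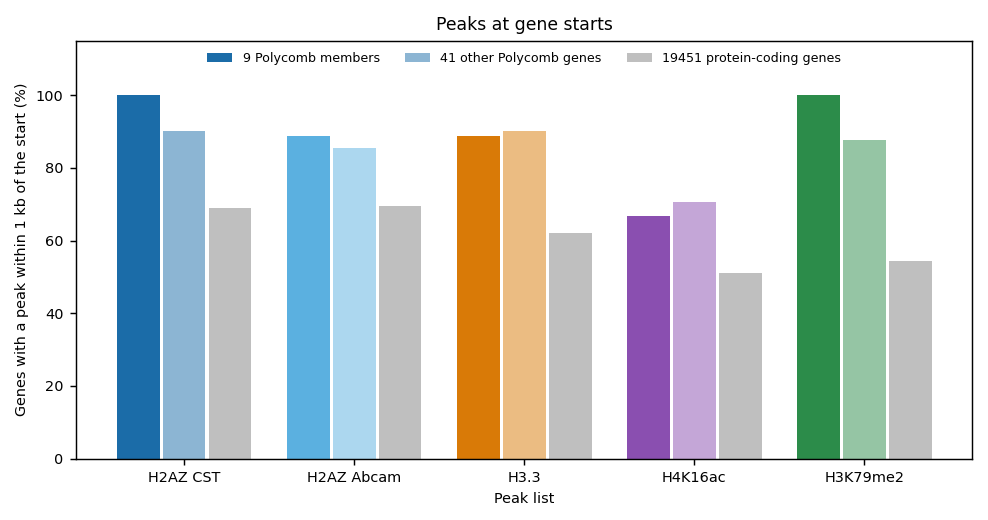
Share of genes (%) with a peak within 1 kb of the start in each of the 5 lists, for the 9 Polycomb genes (full colour, left), 41 other genes of Polycomb complexes and their opponents (pale, middle) and 19451 protein-coding genes (grey, right). The 9 genes stand at 9 of 9 for H2AZ CST and H3K79me2 and lowest for H4K16ac, at 6 of 9 against 51.1% of all genes.

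H3K79me2 had the largest median cover of the 5 lists over these genes. It covered a median of 36.0% of the gene over the 9 genes, against 1.37% over all 19451 genes and 11.7% over the 10559 genes with an H3K79me2 start peak, of which the middle 50% lay between 3.27% and 30.5%. The other lists were close to the median over all 19451 genes. The 9 genes had 1.39% against 1.05% in H2AZ CST and 1.67% against 1.20% in H2AZ Abcam. In H3.3 they had 0.808% against 0.832%, and in H4K16ac 0.427% against 0.497%. Over genes with a start peak of the same list the medians were higher, at 1.78%, 1.98%, 2.63% and 3.05% in that order. Not all of the 9 genes had such a peak in H2AZ Abcam, H3.3 and H4K16ac. H3K79me2 peaks covered at least 20% of the length of 6 of the 9 genes (20.4% of all genes), H3.3 peaks that of 2 (11.8%) and H4K16ac peaks that of 1 (9.08%). The 6 were EZH2, EED, RNF2, BMI1, CBX2 and CBX8, the 2 were CBX2 and CBX8, and the 1 was CBX2. H3K79me2 covered less of EZH1 (11.2%), SUZ12 (7.50%) and PHC1 (5.76%) than the 11.7% median of genes with an H3K79me2 start peak. CBX2 was covered more by H3.3 (43.2%) than by H3K79me2 (36.0%). With 5 kb around each gene included, the H3K79me2 median was 21.0% against 2.28% over all genes. With the 10000 strongest peaks it was 17.9% against 0%.

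**Figure D2:**
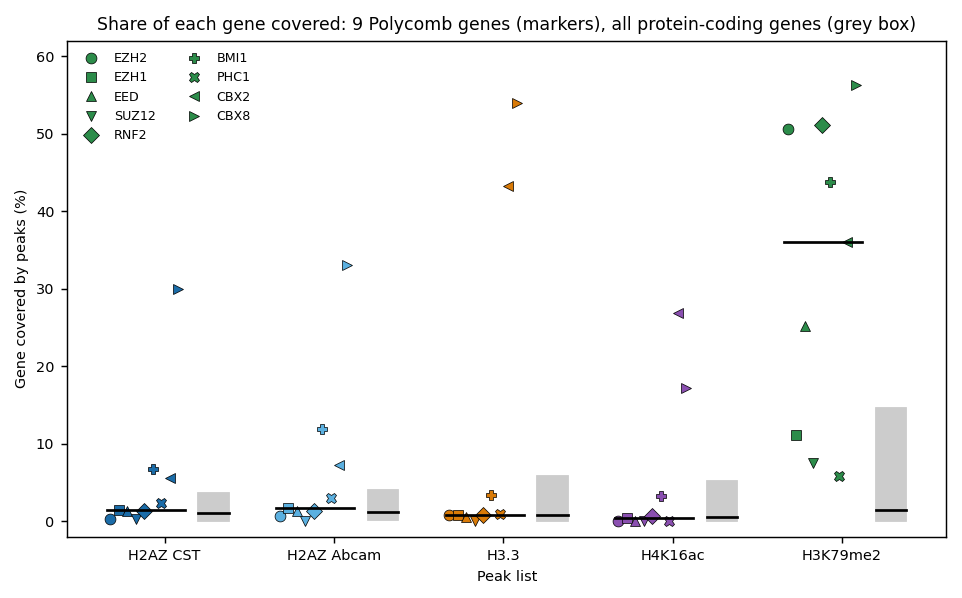
Percent of each gene's length covered by peaks of the 5 lists, with 1 marker per Polycomb gene and a line at their median, beside a grey box from the lower to the upper quartile of 19451 protein-coding genes with a line at the median. In the H3K79me2 list 6 of the 9 genes lie above the grey box, whose top is at 14.6%. In the H3.3 list CBX2 and CBX8, at 43.2% and 54.0%, stand apart from the other genes shown by markers.

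In all, 204 distinct peaks lay over the 9 genes and 5 kb around them, 145 of them on the genes. H3K79me2 gave 81, H3.3 39, H2AZ CST 30, H2AZ Abcam 29 and H4K16ac 25. Peaks were found over the gene or 5 kb around in 9 of 9 genes in H2AZ CST (81.1% of all genes), 8 in H2AZ Abcam (81.1%), 9 in H3.3 (73.5%), 6 in H4K16ac (68.0%) and 9 in H3K79me2 (62.3%). EED, SUZ12 and PHC1 were the 3 genes with no H4K16ac peak anywhere in that span. The peaks of CBX2 and CBX8 are partly the same ones, since their 5 kb surroundings overlap.

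**Figure D3:**
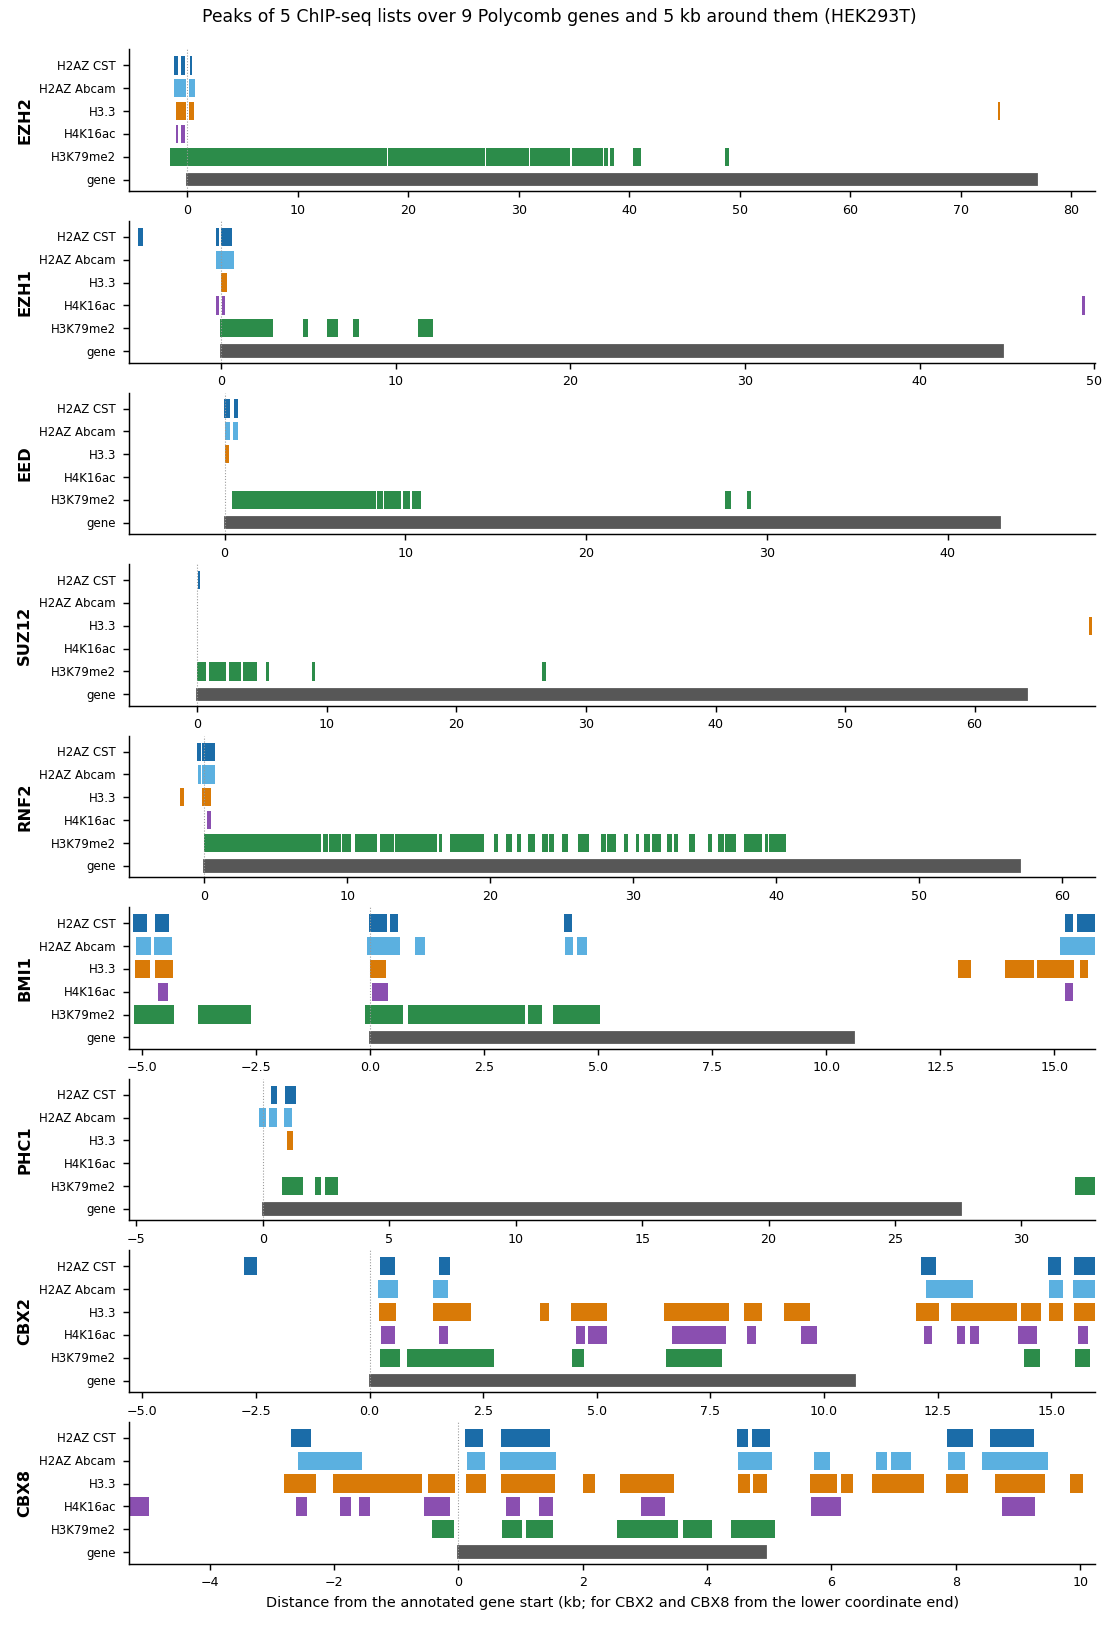
Peaks of the 5 lists (coloured bars, to scale) over each of the 9 genes (dark grey bar) and 5 kb around, against distance in kb from the annotated start, or from the lower coordinate end for CBX2 and CBX8, where no strand was available. H3K79me2 runs from the start far into EZH2 and RNF2, with the last peaks ending at 49.0 and 40.7 kb, and covers most of the first 10 kb of EED, while most peaks of the other lists stay near the start except at BMI1, CBX2 and CBX8.

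EZH2, the main catalytic subunit of PRC2 in dividing cells, lies on chromosome 7 from 148807383 to 148884291 on the minus strand and is 76.9 kb long. It combined H2A.Z peaks of low to middle rank with the strongest H3K79me2 start peak of the 9 genes. The strongest start peaks had a −log10 q of 16.9 in H2AZ CST, 75.7 in H2AZ Abcam, 20.3 in H3.3, 10.9 in H4K16ac and 643 in H3K79me2. Among all genes with a start peak of the same list, 21.4%, 37.1%, 45.4%, 57.0% and 94.6% had a weaker one, in that order. The variant peaks flanked the start: H2AZ CST summits lay at -1007, -246 and +346 bp, H2AZ Abcam summits at -1039, -285 and +319 bp, and H3.3 summits at -277, +286 and +574 bp. Both H4K16ac summits, at -962 and -390 bp, lay upstream of the start, and no part of the gene was covered by H4K16ac. The lncRNA LOC124901767, whose strand is not given in the table used, begins or ends 897 bp upstream of EZH2.

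The H3K79me2 peak over the EZH2 start was 17889 bp wide with a fold enrichment of 113, and ranked 171 by width among the 54476 peaks of its list. It began upstream of the start, at -1548 bp. From 1 kb upstream to 10 kb downstream every base was covered, and from 10 to 20 kb 98.2% was. In total 10 peaks covered 50.6% of the gene, more than in 98.2% of the 5610 genes of 0.5 to 2 times its length, and the last ended at 49.0 kb, 63.8% of the gene's length. Their −log10 q was 643 at the start, between 12.7 and 31.6 for the next 5 peaks, which reached 37.6 kb, and at most 8.35 beyond. A second RefSeq start lies 806 bp downstream, inside the same H3K79me2 peak. An isolated H3.3 peak with −log10 q 8.33 stood at 73.5 kb, near the end of the gene.

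EZH1, the paralogue of EZH2 that persists in non-dividing cells, lies on chromosome 17 from 42700275 to 42745040 on the minus strand. Its ranks ran the other way. The strongest start peaks had a −log10 q of 73.0 in H2AZ CST, 233 in H2AZ Abcam, 78.9 in H3.3, 7.89 in H4K16ac and 132 in H3K79me2. These values were higher than at 89.4%, 90.0% and 93.6% of genes with a start peak for the first 3 lists, but higher than at 36.2% and 43.7% for H4K16ac and H3K79me2. EZH1 was thus first among the 9 genes for both H2A.Z antibodies and for H3.3, and EZH2 was first for H3K79me2. H2AZ CST summits lay at -204 and +150 bp and H4K16ac summits at -173 and +177 bp, on both sides of the start, while single H2AZ Abcam and H3.3 peaks had summits at +157 and +168 bp. H3K79me2 covered 11.2% of the gene in 5 peaks, more than in 72.4% of 6697 genes of similar length, and ended at 12.1 kb of 44.8 kb. The neighbouring gene CNTNAP1 ends 281 bp beyond the far end of EZH1, and 1 H4K16ac peak (−log10 q 4.89) lay within CNTNAP1.

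**Figure D4:**
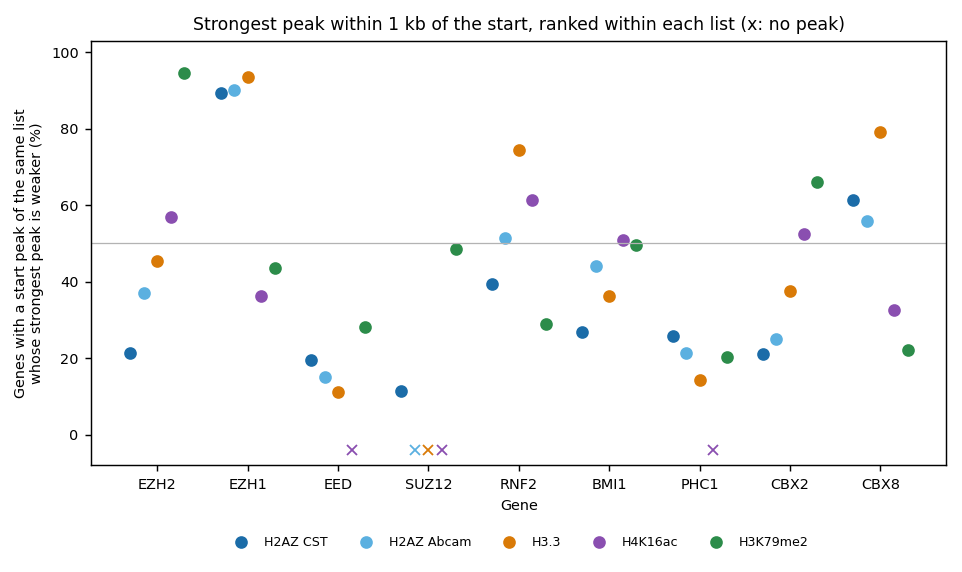
For each Polycomb gene and list, the percent of all genes with a start peak of that list whose strongest start peak had a lower −log10 q, with crosses for no peak and a line at 50%. EZH1 lies between 89.4 and 93.6 for H2AZ CST, H2AZ Abcam and H3.3, EZH2 lies at 94.6 for H3K79me2, and EED and PHC1 lie at 28.2 or lower in each list they appear in.

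EED, the subunit that reads methylated lysine 27, lies on chromosome 11 from 86244753 to 86287615 on the plus strand. Its start peaks were weak, yet H3K79me2 covered most of the first 10 kb. The −log10 q was 16.1 in H2AZ CST, 27.7 in H2AZ Abcam, 7.89 in H3.3 and 66.1 in H3K79me2, with no H4K16ac peak. Between 11.3% and 28.2% of genes with a start peak had a weaker one. H2AZ CST summits lay at +134 and +603 bp, H2AZ Abcam summits at +128 and +573 bp and the H3.3 summit at +93 bp, all downstream of the start. The first H3K79me2 peak was 7969 bp wide and began 412 bp downstream of the start, so that it left out the first H2A.Z and H3.3 peaks. H3K79me2 covered 100% of the stretch from 1 to 5 kb and 96.1% of that from 5 to 10 kb. Over the gene it covered 25.1%, more than in 86.9% of 6741 genes of similar length, and 2 weak peaks with summits at 27.8 and 29.1 kb were the last.

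SUZ12, the scaffold of PRC2, lies on chromosome 17 from 31937007 to 32001038 on the plus strand. It was the gene with the fewest peaks of the variants and of H4K16ac. A single H2AZ CST peak of 195 bp with −log10 q 10.7 lay at +102 bp, and 11.3% of genes with such a peak had a weaker one. No H2AZ Abcam and no H4K16ac peak lay on the gene or within 5 kb. The only H3.3 peak, with −log10 q 6.51, lay beyond the far end, within LOC124903972. H3K79me2 was present nevertheless: the start peak had a −log10 q of 161 and a fold of 50.5, and 7 peaks covered 7.50% of the gene, more than in 68.0% of 5987 genes of similar length. These peaks covered 75.2% of the first kb and 79.8% of the stretch from 1 to 5 kb, and the last ended at 26.9 kb.

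SUZ12 has a partial copy on the same chromosome, the transcribed pseudogene SUZ12P1 at chromosome 17, 30709608 to 30792830. Over SUZ12 and 5 kb around there were 1 H2AZ CST, 0 H2AZ Abcam, 1 H3.3, 0 H4K16ac and 7 H3K79me2 peaks, against 2, 2, 5, 1 and 27 over SUZ12P1 and 5 kb around. The strongest over SUZ12P1 had a −log10 q of 7.90, 31.8, 10.3, 6.14 and 171 in that order. The SUZ12P1 span is the longer one, and peaks of other genes within it were not set apart. The sources used here do not say how reads that match both places were handled, and its part in the SUZ12 values was not tested. The pseudogenes PHC1P1, BMI1P1, EEDP1 and RNF2P1 had no peak in any of the 5 lists.

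RNF2, the ubiquitin ligase of PRC1, lies on chromosome 1 from 185045558 to 185102603 on the plus strand. Like EZH2 it was covered by H3K79me2 over about the same share of its length, but through many smaller peaks. The strongest start peaks had a −log10 q of 28.4 in H2AZ CST, 107 in H2AZ Abcam, 40.8 in H3.3, 11.6 in H4K16ac and 69.9 in H3K79me2. Weaker start peaks were found at 39.3%, 51.4%, 74.4%, 61.3% and 29.0% of the genes that had one. The H2AZ Abcam, H3.3 and H4K16ac summits lay close together, at +272, +264 and +290 bp. H3K79me2 formed 32 peaks that covered 51.1% of the gene, more than in 97.4% of 6238 genes of similar length, and reached 40.7 kb of 57.0 kb. The first was 8223 bp wide and began at -40 bp, with its summit at 3487 bp. A peak at 9022 bp was the strongest on the gene, with −log10 q 96.2.

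BMI1, the PCGF partner of RNF2, lies on chromosome 10 from 22321099 to 22331706 on the plus strand and is 10.6 kb long. The strongest start peaks had a −log10 q of 20.5 in H2AZ CST, 92.1 in H2AZ Abcam, 16.2 in H3.3, 9.91 in H4K16ac and 167 in H3K79me2. Weaker peaks were found at 26.8%, 44.2%, 36.3%, 50.9% and 49.7% of genes. H3K79me2 covered 43.8% of the gene, more than in 87.9% of 5923 genes of similar length, all of it within the first 5.05 kb. A second RefSeq start lies 857 bp downstream, and the stronger H3K79me2 peak (summit at 1050 bp) lies over it, beside a peak with −log10 q 141 and a summit at 200 bp. Weaker H2A.Z peaks stood inside the gene at 4313 and 4376 bp in the lists of both antibodies, with −log10 q 6.76 for H2AZ CST and 8.91 for H2AZ Abcam, which had another at 4647 bp with 16.97.

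BMI1 shares its surroundings with COMMD3, which ends 792 bp upstream, and with the read-through gene COMMD3-BMI1, which starts where COMMD3 does. Near that start all 5 lists had peaks, with summits between -5056 and -3461 bp from the BMI1 start, the strongest with −log10 q 38.1 in H2AZ CST, 118 in H2AZ Abcam, 88.5 in H3.3, 8.87 in H4K16ac and 52.3 in H3K79me2. The H3.3 peak there was stronger than 99.1% of its list, and the one at the BMI1 start stronger than 71.0% of it. Beyond the end of BMI1 a further group of peaks lay between 12.9 and 16 kb from its start, and no other annotated gene was found within 5 kb. The strongest had a −log10 q of 167 for H2AZ Abcam, 41.3 for H2AZ CST, 50.5 for H3.3 and 6.66 for H4K16ac, and no H3K79me2 peak was found there.

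PHC1, a polyhomeotic subunit, lies on chromosome 12 from 8913843 to 8941467 on the plus strand. Its start peaks ranked low in each list that had one, and most lay around the inner start. The strongest start peaks had a −log10 q of 19.8 in H2AZ CST, 42.3 in H2AZ Abcam, 8.79 in H3.3 and 42.3 in H3K79me2, with no H4K16ac peak. Weaker ones were found at 25.7%, 21.5%, 14.2% and 20.3% of genes. Measured from the inner start, in the CpG-rich sequence printed above, H2AZ CST summits lay at -248 and +337 bp, the H2AZ Abcam ones at -696, -272 and +324 bp, the H3.3 summit at +454 bp and the first H3K79me2 summit at +339 bp. Within 500 bp of the outer start 2 lists had a peak, and within 500 bp of the inner one 4 had, a comparison chosen after the data had been seen. H3K79me2 covered 5.76% of the gene in 3 peaks, more than in 55.5% of 7091 genes of similar length, and ended at 2.98 kb. A stronger H3K79me2 peak within 5 kb of the far end, with −log10 q 159, lies at the start of M6PR, which overlaps the end of PHC1.

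CBX2 and CBX8, chromodomain readers of canonical PRC1, lie 4148 bp apart on chromosome 17, CBX2 from 79777311 to 79787983 and CBX8 from 79792132 to 79797077. H3.3 and H4K16ac covered a larger part of both than of the other 7 genes. H3.3 covered 43.2% of CBX2 and 54.0% of CBX8, against 0% to 3.3% of the other 7 genes, and H4K16ac covered 26.9% and 17.2%, against 0% to 3.24%. For H3.3 these shares were higher than in 94.0% of 5944 and 92.1% of 4019 genes of similar length, and for H4K16ac higher than in 91.6% and 78.7%. Such cover was not particular to this pair. Among the 41 other genes of Polycomb complexes and their opponents, H3.3 covered 62.5% of KDM6B, 51.1% of CBX6 and 49.1% of FBRSL1. H4K16ac covered 49.1% of FBRSL1 and 39.5% of FBRS. The medians over these 41 genes were 1.74% for H3.3 and 1.76% for H4K16ac. H3K79me2 covered 36.0% of CBX2 and 56.2% of CBX8. H2A.Z covered CBX8 more than CBX2, at 30.0% against 5.56% for H2AZ CST and 33.1% against 7.28% for H2AZ Abcam.

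At CBX2 the strongest end peaks had a −log10 q of 16.9 in H2AZ CST, 49.3 in H2AZ Abcam, 16.8 in H3.3, 10.2 in H4K16ac and 288 in H3K79me2, all at the lower coordinate end. The H3K79me2 peak was 1906 bp wide with its summit 1562 bp into the gene. At the upper end of CBX2 there was no H2A.Z and no H3K79me2 peak, and the H3.3 and H4K16ac peaks there had a −log10 q of 8.59 and 4.68. At CBX8 both ends were marked by all 5 lists. The lower end had values of 36.5, 117, 46.1, 7.50 and 10.5 for H2AZ CST, H2AZ Abcam, H3.3, H4K16ac and H3K79me2, and the upper end 42.5, 112, 15.3, 6.64 and 48.2. H3.3 was thus stronger at the lower end of CBX8 and H3K79me2 at the upper end. The strongest H2A.Z end peaks of CBX8 were near the middle of the range, above 61.4% (H2AZ CST) and 55.9% (H2AZ Abcam) of genes with a start peak. The H2AZ CST peak lay at the upper end and the H2AZ Abcam peak at the lower end. Genes with a known strand were ranked at the start only, so these ranks are not quite alike.

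From 5 kb below CBX2 to 5 kb above CBX8, 29.8 kb at chromosome 17, 79772311 to 79802077, there were 69 peaks. H2AZ CST covered 13.0% of this stretch against 1.81% of the chromosome between its first and last gene, H2AZ Abcam 19.0% against 1.83%, H3.3 41.7% against 3.38%, H4K16ac 19.2% against 3.03% and H3K79me2 23.9% against 4.93%. The chromosome's values include its stretches without genes. H3.3 peaks lay beyond the upper end of CBX2 and beyond both ends of CBX8, but none lay in the 5 kb below CBX2. In the 4148 bp between CBX2 and CBX8 H3.3 covered 57.6%, H2AZ Abcam 24.95%, H4K16ac 23.1%, H3K79me2 8.32% and H2AZ CST 7.84%.

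The sides of the pair differed. In the 5 kb below CBX2 a single H2AZ CST peak with −log10 q 7.90 was the only peak of the 5 lists. In the 5 kb above CBX8 there were 7 H3.3, 6 H2AZ Abcam, 3 H2AZ CST, 2 H4K16ac peaks and 1 H3K79me2 peak. There H3.3 covered 54.8%, H2AZ Abcam 44.1%, H2AZ CST 23.6%, H4K16ac 20.5% and H3K79me2 2.86%. The strongest H3.3 peak of the stretch, with −log10 q 71.5, stood there, its summit 23.7 kb from the lower end of CBX2, and ranked above 98.2% of its list.

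**Figure D5:**
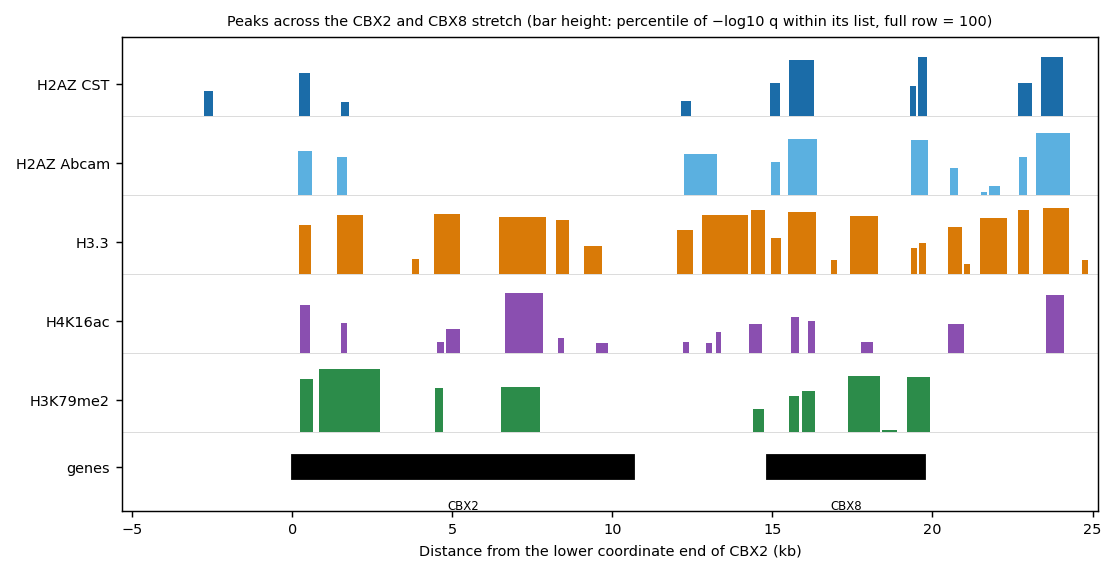
Peaks of the 5 lists across the CBX2 and CBX8 stretch of chromosome 17, against distance in kb from the lower coordinate end of CBX2. Bar height is the percentile of a peak's −log10 q within its own list, and black bars are the genes. H3.3 peaks continue past the upper end of CBX2 and both ends of CBX8, but not into the 5 kb below CBX2. They cover 57.6% of the sequence between CBX2 and CBX8 and 54.8% of the 5 kb above CBX8. H3K79me2 covers 8.32% and 2.86% there.

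Over the 9 genes the H2A.Z antibodies largely marked the same places. Of the 30 H2AZ CST peaks over the genes and 5 kb around, 90% overlapped an H2AZ Abcam peak by at least 1 bp, against 72.6% of all H2AZ CST peaks. Of the 29 H2AZ Abcam peaks 79.3% overlapped an H2AZ CST peak, against 74.8% of all. H4K16ac had 25 peaks, of which 16 lay in the CBX2 and CBX8 stretch and none at EED, SUZ12 or PHC1. Of these 25, 92% met an H3.3 peak against 58.8% of all H4K16ac peaks, 68% an H2AZ Abcam peak against 30.1%, 56% an H2AZ CST peak against 29.9% and 56% an H3K79me2 peak against 25.2%. In the other direction 51.3% of the 39 H3.3 peaks, 22 of them in the CBX2 and CBX8 stretch, met H4K16ac, against 60.6% of all. For H3K79me2 the comparison with the background depended on the direction. H3K79me2 peaks were met by 60% of H2AZ CST peaks (32.8% of all), 58.6% of H2AZ Abcam peaks (35.2%) and 46.2% of H3.3 peaks (34.8%). Of the 81 H3K79me2 peaks, 32 of them at RNF2, 19.8% met an H3.3 peak (33.6% of all), 18.5% an H2AZ CST peak (23.6%), 18.5% an H2AZ Abcam peak (24.1%) and 16.05% an H4K16ac peak (26.9%). The shares over all peaks include peaks wherever they lie, while the peaks of the 9 genes lie on or near genes, so the sets are not alike. Peaks of 1 gene share their surroundings and are not independent of each other.

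A strong H3K79me2 start peak did not always go with wide cover. SUZ12 and RNF2 had H3K79me2 start peaks of −log10 q 161 and 69.9, and H3K79me2 covered 7.50% and 51.1% of them. The median −log10 q of the strongest start peak was lower over the 9 genes than over all genes with such a peak for H2AZ CST (19.8 against 35.0), H2AZ Abcam (83.9 against 104), H3.3 (18.5 against 22.9) and H3K79me2 (132 against 168), and about level for H4K16ac (10.0 against 9.79).

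By the share of the gene and 5 kb around covered by each list, each gene was compared with 49 others, the other 8 members and 41 further genes of Polycomb complexes and of the enzymes that remove their marks. The likeness measure was the Euclidean distance over the 5 percentages. They were not scaled, so lists with high cover weighed most and lists with low cover weighed little. The nearest were MTF2 for EZH2 (distance 1.72), PCGF6 for EZH1 (2.01), LCOR for EED (2.88), PHC3 for SUZ12 (1.43) and for PHC1 (2.00), and EZH2 for RNF2 (3.05). The measure hardly registers lists that are absent or nearly so: PHC3 had start peaks of 5 lists and SUZ12 of 2. MTF2 is a PRC2 accessory subunit and had 46.8% covered by H3K79me2 on that span, against 46.5% for EZH2. BMI1, CBX2 and CBX8 were farther from each of the 49, with smallest distances of 14.6 to RBBP7, 11.3 to FBRS and 27.9 to KDM6B. They were covered more by H2A.Z and H3.3 on that span than the other members, and higher percentages allow larger distances.

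Those 41 further genes also carried the marks widely at their starts: 37 (90.2%) had an H2AZ CST peak, 35 (85.4%) H2AZ Abcam, 37 (90.2%) H3.3, 29 (70.7%) H4K16ac and 36 (87.8%) H3K79me2, and 27 (65.9%) had all 5. The same shares over all genes were 69.0%, 69.5%, 62.2%, 51.1%, 54.3% and 35.5%. In 4 of their 5 groups the median H3K79me2 cover lay between 24.5% and 40.6%. Among the 10 other PRC2 genes the median was 27.8%, led by EPOP (60.3%) and MTF2 (54.0%), both accessory subunits. Another 8 canonical PRC1 genes had a lower median of 6.72%, though CBX6 (68.2%) and PCGF2 (67.2%) were covered over most of their length. Variant PRC1, 15 genes, had 28.6%, led by PCGF1 (58.8%) and BCOR (48.8%), and the 6 genes of the PR-DUB, which removes ubiquitin from H2A, had 24.5%, led by FOXK2 (69.2%) and FOXK1 (63.2%). The demethylases of lysine 27, KDM6B and KDM6A, had 50.5% and 30.8%. PHF19 and PCGF5 had no peak of any list at the outermost start, and at another annotated start PHF19 had peaks of all 5 lists and PCGF5 of the 4 lists other than H3.3.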

How the data were processed

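ChIP-seq peak lists of 5 libraries from HEK293T cells were the starting point, with no values of the input library used. The submitters' processing notes name MACS2 2.1.0, Bowtie 1.1.2, Trimmomatic 0.33, bcl2fastq 2.17 and build hg38. The sources used here do not give their settings, the treatment of duplicate and multiply matching reads or the use of the input. Each list came from 1 library. The deposited lists give each peak's position and summit offset, and a linear ratio computed by the authors, the fold at the summit. The −log10 q-value and −log10 p-value in the deposited lists are the authors' too, and only the q-value was used, within a list. The deposited integer score was not used.

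Peaks on chromosomes 1 to 22 and X were mapped to RefSeq genes (GRCh38.p14) with Python 3.11.15, numpy 2.4.6 and pandas 2.3.3. That table gives neither exons nor untranslated regions, so peaks were not assigned to them. The strand came from RefSeq promoter entries for 15413 of 19451 genes. The mapping functions were tested on simulated intervals. Each list was a single library, so no test was made. Alternatives were the peak threshold, the window, the flank, the overlap and the choice of start. The members and gene lists were chosen with earlier results of these data known. Named genes were all members, the genes of the CBX stretch, genes with a start near a member, the 2 genes of each further list with most H3K79me2 cover, those with no start peak, and each member's nearest gene by cover. Pseudogene copies and other neighbours were added after values were seen. Some planned genes are not reported here.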

Additional observations from a re-analysis of the deposited data

How the results depend on the processing

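Of 57 alternative values computed, 44 stayed within 1.5 times the reported value and 13 did not. With the 10000 strongest peaks of each list, start peaks remained at 2 of 9 genes for H2AZ CST (36.3% of all genes), 3 for H2AZ Abcam (38.2%), 3 for H3.3 (26.1%) and 0 for H4K16ac (13.5%). The median cover of the 9 genes was then 0% for H2AZ CST, H2AZ Abcam, H3.3 and H4K16ac and 17.86% for H3K79me2, each against 0% over all genes. These alternatives use fewer peaks by construction. With 5 kb around each gene included, the median cover was 1.293% for H3.3 (1.175% over all genes), 0.6789% for H4K16ac (0.7855%) and 20.99% for H3K79me2 (2.283%). The inner start of PHC1, chosen after the data were seen, had 4 lists within 500 bp against 2 at the outer one. With a 500 bp window or with the summit required inside the window, PHC1 lost its H3.3 and H3K79me2 start peaks, and RNF2 lost its H3K79me2 start peak under the summit rule. A floor of 5 on −log10 q changed no start count of the 9 genes. No paired analysis was possible because each antibody had 1 library. A gene without a peak may still carry signal under the calling threshold, and the sources used here do not give the depth.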
